A study of Mus musculus with 8 samples.

Results

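Sox transcription factors were examined in the thoracic aorta of mice with and without Tsc1 in smooth muscle. The 9 genes described here are Sox4, Sox5, Sox6, Sox7, Sox9, Sox12, Sox13, Sox17 and Sox18, taken by symbol from a table of 23993 genes that holds 20 genes of the family, Sry included. They were selected from their levels and their genotype differences in these 8 libraries, so the differences given for them are descriptions and carry no test. RNA came from male C57BL/6 mice at 24 weeks of age, with 4 replicate libraries of each genotype. All the mice carried Myh11-CreERT2, a Cre recombinase that smooth muscle cells make and that tamoxifen activates, and the mT/mG fluorescent reporter. Tamoxifen was given to both genotypes at 1.5 weeks. Controls were Tsc1+/+ and knockouts were Tsc1fl/fl. Tsc1 encodes hamartin, which with Tsc2 restrains the growth kinase mTORC1. In the labels the cell type is that of smooth muscle, yet the protocol takes RNA from crushed whole aorta with no sorting step. The RNA thus also holds that of endothelium, adventitia and any attached tissue, while the Myh11 promoter drives the Cre in smooth muscle. No label says that the replicates are separate animals, and if they are not, the spread behind each p-value may be only technical.

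Sox proteins bind the minor groove of DNA and bend it through a high mobility group (HMG) box, and they are sorted into groups by the similarity of that box. SoxC factors (Sox4, Sox12) act in embryonic progenitors, including those of the heart's outflow tract. SoxD factors (Sox5, Sox6, Sox13) have no activation or repression domain of their own and modify what other Sox factors do, and SoxE factors (here Sox9) activate cartilage genes together with Sox5 and Sox6. SoxF factors (Sox7, Sox17, Sox18) are factors of the endothelium, where they take part in arterial and lymphatic differentiation.

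The HMG box is shown first because it is what defines the groups by which the values are ordered. The following 8 stretches are codons 14 to 33 of the box, read 5′ to 3′ from the reference transcripts (GENCODE vM21), with capitals at codons whose amino acid differs from that of Sox9.
Sox4: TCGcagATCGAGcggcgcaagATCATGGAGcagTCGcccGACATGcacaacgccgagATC
Sox12: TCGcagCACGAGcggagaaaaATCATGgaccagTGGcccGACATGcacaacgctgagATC
Sox5: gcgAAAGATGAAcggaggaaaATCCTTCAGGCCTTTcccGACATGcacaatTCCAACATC
Sox6: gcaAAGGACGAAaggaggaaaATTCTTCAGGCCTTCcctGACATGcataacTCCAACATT
Sox13: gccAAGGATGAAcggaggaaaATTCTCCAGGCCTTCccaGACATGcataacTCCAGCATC
Sox9: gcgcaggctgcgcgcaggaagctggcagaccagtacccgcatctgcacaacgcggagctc
Sox17: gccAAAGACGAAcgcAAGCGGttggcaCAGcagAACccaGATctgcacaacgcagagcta
Sox18: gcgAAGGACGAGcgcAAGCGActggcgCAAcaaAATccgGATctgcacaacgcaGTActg
Some of the changed residues are shared between groups as well as within them. Sox5, Sox6 and Sox13 depart from Sox9 at 13 of these 20 codons, Sox4 at 10, Sox12 and Sox18 at 9, and Sox17 at 8. Over the whole box of 79 residues, the 7 pairs within a group were 81.0% to 93.7% identical and the 29 pairs between groups were 48.1% to 69.6% identical. Sox4 and Sox12 shared 87.3% of residues and Sox17 and Sox18 shared 88.6%.

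In the genome (GRCm38/mm10), Sox4 is a single-exon gene on chromosome 13 (28948919 to 28953713, minus strand) and Sox9 has 3 exons on chromosome 11 (112782224 to 112787760, plus strand). Sox13 (133382303 to 133424377) and Sox17 (4490931 to 4497354) are both on chromosome 1, and Sox12 (152393611 to 152398063) and Sox18 (181669836 to 181671640) are both on chromosome 2, all 4 on the minus strand. Sox5 (chromosome 6, 143828425 to 144781977) and Sox6 (chromosome 7, 115470872 to 116038796) are long minus-strand genes, and Sox7 (chromosome 14, 63943673 to 63950732) is on the plus strand. Exons of Sox4 overlap 2616 bases of the opposite-strand long noncoding gene Gm26735, those of Sox5 overlap 1330 bases of Sox5os1, and those of Sox17 overlap 804 bases of Gm37587. None of these 3 partners has a row in the table, and the strand setting is not given in the sources used here, so reads of a gene and its partner cannot be told apart.

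Promoters of the SoxC pair are shown because the mean levels of these near relatives differed in opposite directions between the genotypes. RefSeq's promoter table (GRCm38.p6) matched 5 of the 9 members, namely Sox4, Sox5, Sox6, Sox12 and Sox13, while Sox7, Sox9, Sox17 and Sox18 are named only. The 250 bases before the start are chr13:28953700-28953949 for Sox4 and chr2:152398047-152398296 for Sox12, each on the minus strand and written 5′ to 3′, with capitals at CCAAT or its complement ATTGG.
Sox4: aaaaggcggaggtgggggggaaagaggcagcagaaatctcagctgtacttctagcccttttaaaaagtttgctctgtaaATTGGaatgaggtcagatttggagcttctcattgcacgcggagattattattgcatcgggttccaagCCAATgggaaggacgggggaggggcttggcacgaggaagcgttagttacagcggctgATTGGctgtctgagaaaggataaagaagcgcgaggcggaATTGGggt
Sox12: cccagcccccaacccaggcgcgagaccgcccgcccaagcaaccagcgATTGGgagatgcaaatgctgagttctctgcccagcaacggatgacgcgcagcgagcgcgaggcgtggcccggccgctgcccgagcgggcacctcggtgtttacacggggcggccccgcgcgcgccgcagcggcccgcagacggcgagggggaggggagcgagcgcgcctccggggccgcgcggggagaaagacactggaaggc
The Sox4 stretch held 4 such matches and had a GC content of 50.8%, against 1 match and 74.4% in Sox12, and the median GC content over all 32851 windows was 52.4%. CCAAT on either strand occurred in 37.4% of all windows of 300 bases, and 4 or more matches in 1.06%. One of the 6 windows of Sox6, which was lower in the knockouts, also held 4 matches. This motif was added after the sequences had been read. The motif CACGTG, searched on both strands and found in 7.2% of windows, was in no member's window. The Sox core motifs ACAAAG (18.7% of windows) and ACAATG (12.6%) did not occur in the windows of Sox4, Sox12 or Sox13. The Sox5 window held 1 ACAATG, and 5 of the 6 Sox6 windows held 1 or more of these motifs.

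The libraries differed in depth, which the files do not give and which was estimated only as a ratio to control 1. That estimate was the most frequent ratio of FPKM values among genes above 0 and below 0.3 FPKM in both libraries. The estimated depths ran from 0.763 (knockout 1) to 2.45 (control 3). FPKM counts fragments per kilobase of a transcript and is scaled to the size of the library, so that levels of different genes can be set side by side. The FPKM of all genes nevertheless summed to 483615 to 937271 in the controls and to 453564 to 467703 in the knockouts, so every knockout total was below every control total. Between 11867 and 12083 genes per library reached 1 FPKM, and libraries of the same genotype correlated at 0.967 to 0.984 over genes. Tsc1 itself was at 4.03, 4.82, 4.95 and 6.32 FPKM in the controls and 2.99, 3.58, 3.37 and 3.71 in the knockouts, a log2 difference of -0.44 (SE 0.12, adjusted p 0.019 by limma), and the groups did not overlap. Differences throughout are knockout minus control on the log2(FPKM + 1) scale, which understates the change of low genes, and tests covered genes whose mean over the libraries was 1 FPKM or more. All 9 members passed this filter. The lowest of them, Sox6, had a mean of 1.87 FPKM over the 8 libraries. The highest of the other 11 family genes, Sox8, had 0.667, followed by Sox10 and then by genes at 0.0968 or less, with Sox1, Sox14, Sox21 and Sry listed at 0 in all libraries.

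SoxC: Sox4 had the largest difference of the 9, and Sox12 was lower on average in the knockouts. Sox4 stood at 5.66, 7.53, 5.51 and 8.75 FPKM in controls 1 to 4 and at 87.3, 53.5, 80.8 and 47.8 FPKM in knockouts 1 to 4. Every knockout was above every control, and knockouts 1 and 3 were above knockouts 2 and 4. The means were 6.87 ± 1.56 and 67.3 ± 19.6 FPKM (SD, n = 4 each), a 9.81-fold ratio and a log2 difference of 3.09 (SE 0.21), the 13th largest in size of 12107 tested genes. Sox12, the other SoxC gene above the filter, was at 2.39, 3.67, 2.83 and 4.83 FPKM in the controls and 1.18, 2.90, 1.02 and 2.57 in the knockouts. Its groups overlapped, and in the knockouts replicates 2 and 4 were the higher, where Sox4 was higher in replicates 1 and 3. Its means were 3.43 ± 1.08 and 1.92 ± 0.955 FPKM, a log2 difference of -0.63 (SE 0.25). The remaining SoxC gene, Sox11, was below the filter at 0.0579 ± 0.00959 and 0.0300 ± 0.0245 FPKM.

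**Figure D1:**
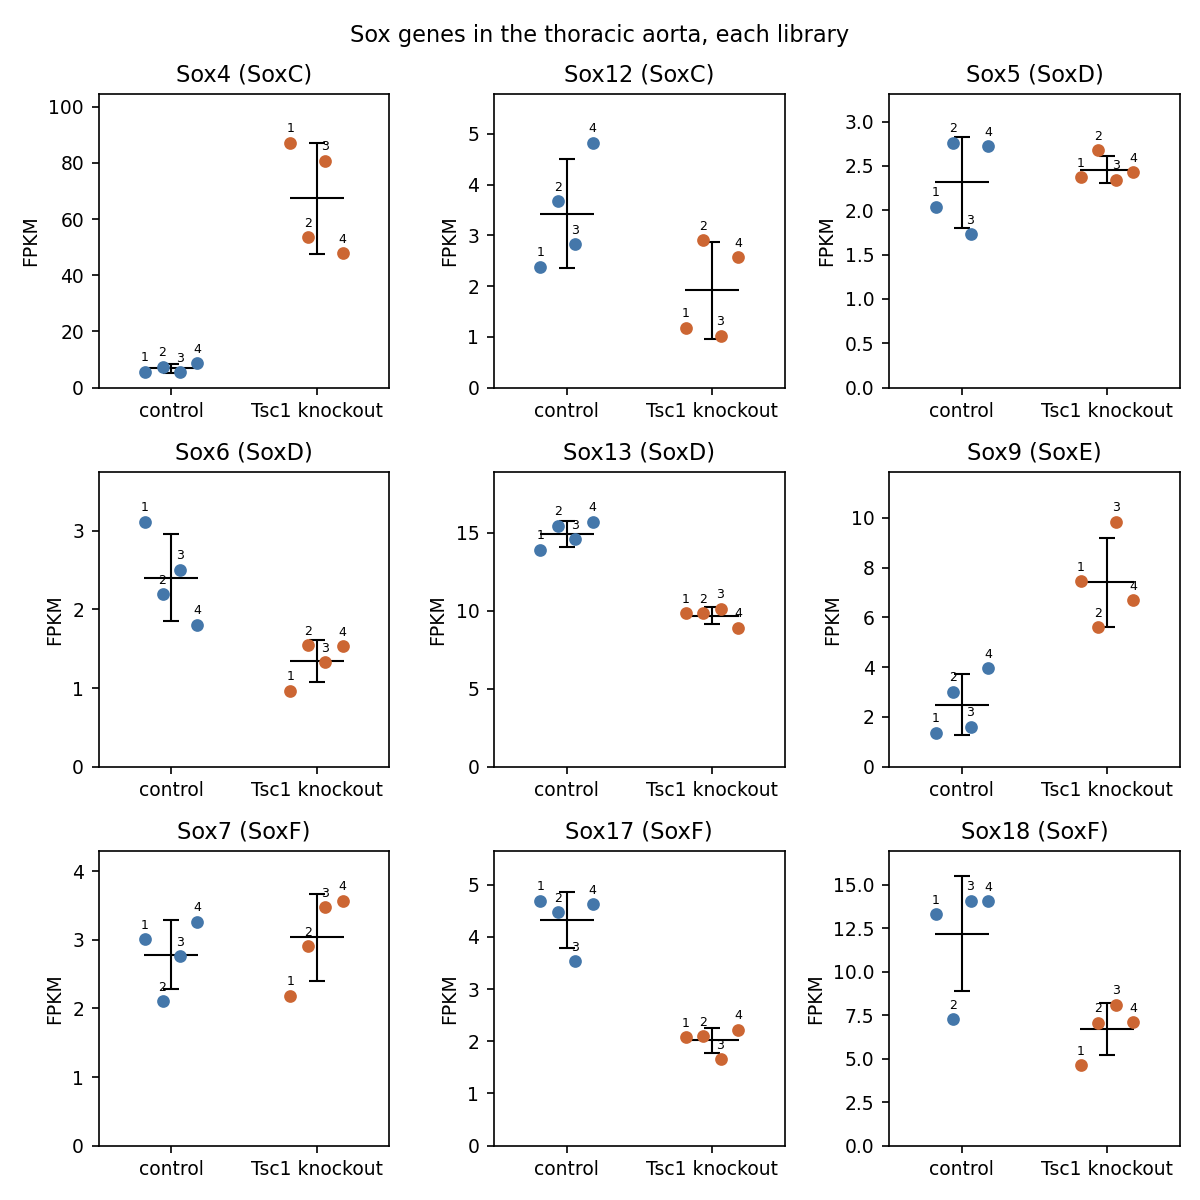
FPKM of each Sox gene (vertical axes, each from 0) in the 4 control and 4 Tsc1 knockout libraries; points are libraries with their replicate number, bars the mean and SD. Sox4 spans 5.51 to 8.75 in controls and 47.8 to 87.3 in knockouts, while the points of Sox5 and Sox7 overlap.

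SoxE: Sox9, which drives cartilage formation and is also known from chondrocyte-like states of vessel wall cells, was higher in the knockouts. The control libraries held 1.37, 3.02, 1.60 and 3.96 FPKM, and the knockout libraries 7.47, 5.6, 9.85 and 6.70. The lowest knockout was above the highest control. The controls with the higher values were replicates 2 and 4, and the knockouts with the higher values were replicates 1 and 3, as for Sox4. The means were 2.49 ± 1.22 and 7.40 ± 1.81 FPKM, a 2.98-fold ratio and a log2 difference of 1.31 (SE 0.25), and 1.72% of tested genes differed by more. The other SoxE genes were below the filter: Sox8 was at 0.766 ± 0.116 and 0.568 ± 0.144 FPKM, and Sox10, a factor of Schwann cells, at 0.683 ± 0.127 and 0.507 ± 0.191.

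SoxD: Sox13 and Sox6 were lower in the knockouts and Sox5 overlapped between the genotypes. Sox13, the most abundant of the 9 in the controls, was at 13.9, 15.5, 14.6 and 15.7 FPKM there and at 9.85, 9.83, 10.1 and 8.91 in the knockouts. Its replicates were the tightest of the 9 relative to their means. The means were 14.9 ± 0.83 and 9.68 ± 0.536 FPKM, a log2 difference of -0.58 (SE 0.06). Sox6 was at 3.12, 2.20, 2.50 and 1.80 FPKM in the controls and 0.968, 1.54, 1.32 and 1.53 in the knockouts, again without overlap. Its log2 difference was -0.53 (SE 0.14). Sox5, which shares 93.7% of its HMG box with Sox6, was at 2.04, 2.76, 1.73 and 2.73 FPKM in the controls and 2.37, 2.68, 2.34 and 2.43 in the knockouts. The knockout values lay inside the range of the controls, with a log2 difference of 0.07 (SE 0.12).

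SoxF: Sox17 was lower in every knockout, Sox18 was lower on average with overlap, and Sox7 overlapped between the genotypes. Sox17, a factor of arterial endothelium, was at 4.70, 4.47, 3.54 and 4.62 FPKM in the controls and 2.08, 2.10, 1.66 and 2.23 in the knockouts. The highest knockout was below the lowest control. The means were 4.33 ± 0.537 and 2.02 ± 0.246 FPKM, 2.15-fold higher in the controls, with a log2 difference of -0.82 (SE 0.10). Sox18, a factor of vascular and lymphatic endothelium, was at 13.3, 7.27, 14.1 and 14.1 FPKM in the controls and 4.61, 7.06, 8.10 and 7.10 in the knockouts. Control 2 stood apart from the other controls and within the range of the knockouts. The log2 difference was -0.75 (SE 0.22). Over the 8 single omissions it ran from -0.96 without control 2 to -0.61 without knockout 1. Sox7 was at 3.01, 2.10, 2.76 and 3.27 FPKM in the controls and 2.19, 2.91, 3.47 and 3.57 in the knockouts, a log2 difference of 0.09 (SE 0.14).

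**Figure D2:**
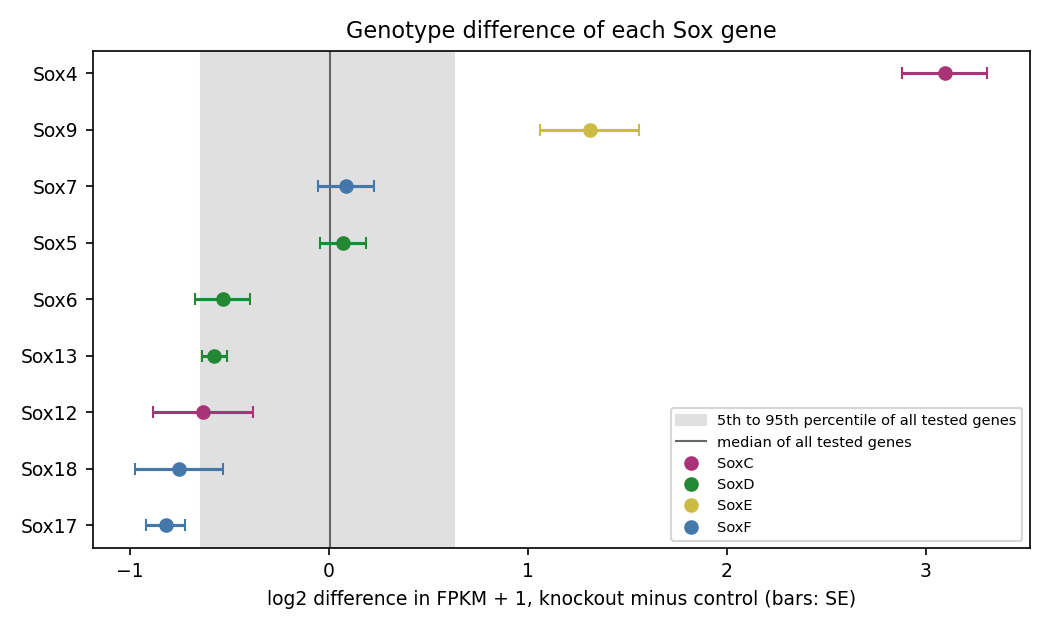
Log2 difference in FPKM + 1, knockout minus control (horizontal axis), of each Sox gene with its SE, coloured by group; the grey band is the 5th to 95th percentile of all tested genes, from -0.64 to 0.63. Sox4 and Sox9 lie right of the band, Sox17 and Sox18 left of it, and the other 5 inside it.

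Across all tested genes, 17.1% were called higher and 15.0% lower at an adjusted p under 0.05. By the same rule 2 members were higher (Sox4 and Sox9), 4 were lower (Sox6, Sox13, Sox17 and Sox18) and 3 were neither, and since the members were selected on this contrast, nothing is read from that count. All 4 knockouts were above all 4 controls in 18.3% of tested genes and below them in 15.6%. Among the members that held for 2 (Sox4 and Sox9) and 3 (Sox6, Sox13 and Sox17).

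The summed level of the 9 genes and its composition differed between the genotypes mainly through Sox4. The sum was 51.7 ± 5.36 FPKM in the controls and 102 ± 19.1 in the knockouts, and without Sox4 it was 44.9 ± 4.30 and 34.6 ± 2.96. Sox4 made up 13.2% ± 2.20 of the sum in the controls and 65.1% ± 7.33 in the knockouts. The SoxD genes together were at 19.6 ± 0.814 and 13.5 ± 0.546 FPKM, and the SoxF genes at 19.3 ± 3.69 and 11.8 ± 1.99. In the controls these 2 groups were thus at similar summed levels, each above that of SoxC (10.3 ± 2.61), whereas in the knockouts SoxC (69.3 ± 18.7) was above both.

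**Figure D3:**
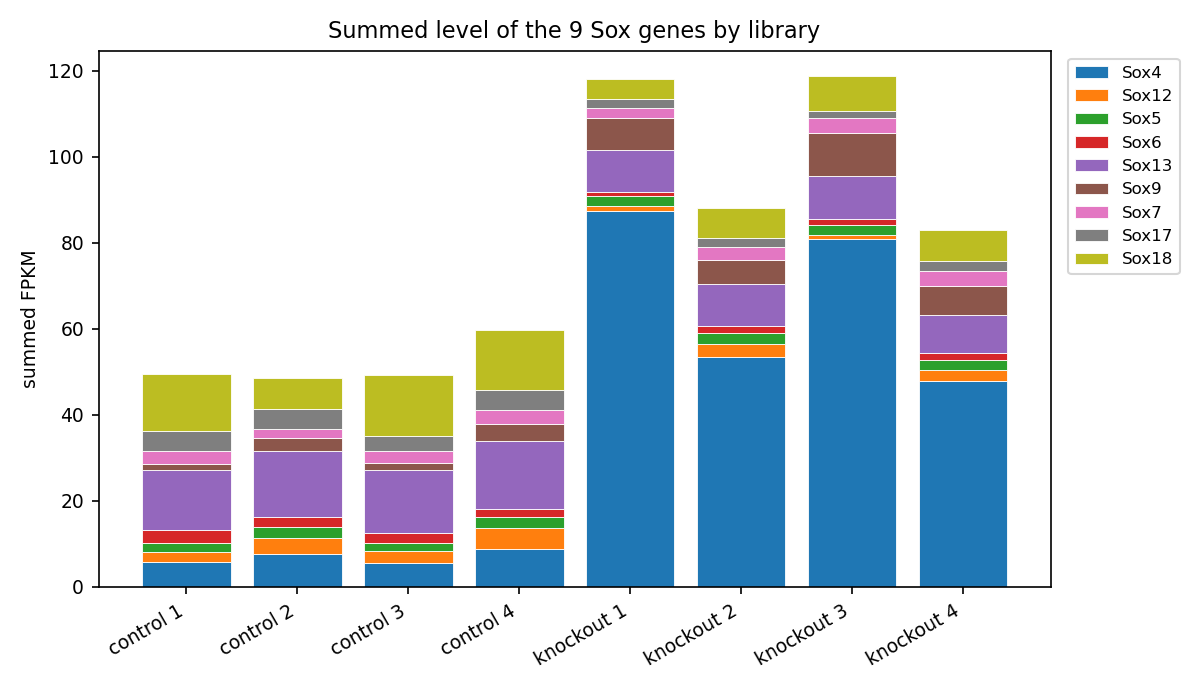
Stacked FPKM of the 9 Sox genes (vertical axis, from 0) in each of the 8 libraries, 1 colour per gene. Sox4 fills 11.2% to 15.5% of a control bar and 57.7% to 74.0% of a knockout bar.

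By mean FPKM the order in the controls was Sox13, Sox18, Sox4, Sox17, Sox12, Sox7, Sox9, Sox6 and Sox5. Of these neighbours, the ranges of Sox4 and Sox17 did not overlap, while those of every other neighbouring pair did, so the order below Sox17 is within the spread. In the knockouts the order was Sox4, Sox13, Sox9, Sox18, Sox7, Sox5, Sox17, Sox12 and Sox6. There the ranges were apart between Sox4 and Sox13, between Sox18 and Sox7 and between Sox5 and Sox17. Sox9 was above Sox18 in 2 of the 4 knockout libraries, and their ranges overlapped there.

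Replicates 1 and 3 differed from replicates 2 and 4 in several members. In the controls, Sox4, Sox5, Sox9, Sox12 and Sox13 were higher in both of replicates 2 and 4 than in either of 1 and 3, and Sox6 was the reverse. In the knockouts, Sox4, Sox9 and Sox13 were higher in both of replicates 1 and 3, and Sox5, Sox6, Sox12 and Sox17 were higher in 2 and 4. From replicates 1 and 3 alone the log2 difference was 3.69 for Sox4 and 1.95 for Sox9, and from replicates 2 and 4 alone it was 2.50 and 0.68. The labels give no date or batch for these numbers.

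Of 17 cartilage genes listed as bound or activated by Sox9 with Sox5 and Sox6, 4 reached the filter. Of these, 0 were called higher, 2 lower and 2 neither, beside 17.1% higher and 15.0% lower over all tested genes. With 4 genes tested, nothing is read from the lack of higher calls. The median log2 difference of the 4 was -0.70, against 0.01 for all tested genes. Acan, the core protein of the cartilage proteoglycan aggrecan, fell from 14.4 ± 6.00 to 5.55 ± 2.63 FPKM, a log2 difference of -1.23 with an SE of 0.36 and a limma adjusted p of 0.0317. Its libraries were at 12.2, 19.4, 6.92 and 19.1 FPKM in the controls and 3.44, 8.35, 3.18 and 7.22 in the knockouts. Those groups overlapped, and the call was lost on leaving out control 1, 2 or 4 or knockout 1 or 3 (log2 differences over the 8 single omissions from -1.51 to -1.04). Cytl1, a secreted cartilage protein, fell from 423 ± 81.0 to 190 ± 53.4 FPKM, a log2 difference of -1.18 with an SE of 0.21 (limma adjusted p 0.00325). Col2a1, the main collagen of cartilage, was at 0.0458 ± 0.0278 and 0.0739 ± 0.0437 FPKM, below the filter.

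Of 4 genes reported as direct SoxC targets, 2 were tested and 1 was called higher, beside 17.1% higher over all tested genes. Tead2, a partner of the Hippo pathway's effectors, rose from 7.51 ± 0.847 to 11.5 ± 2.52 FPKM, a log2 difference of 0.54 with an SE of 0.15 (limma adjusted p 0.0232), and the call was lost without control 1 or 3 or knockout 1 or 3. Its knockout libraries were at 13.7, 10.9, 13.3 and 8.21 FPKM, with knockout 4 inside the control range of 6.67 to 8.26. Ezh2, a histone methyltransferase, was at 2.0 ± 0.268 and 1.94 ± 0.422 FPKM. The neuronal gene Tubb3 was below the filter at 0.537 ± 0.0506 and 0.960 ± 0.381, its groups apart, and Dcx was below it at 0.00134 ± 0.00268 and 0.00243 ± 0.00487.

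Of 4 TCF/LEF factors, which carry an HMG box of another family and act in Wnt signalling, 2 were tested. Of these, 0 were called higher and 1 lower, beside 17.1% higher and 15.0% lower over all tested genes, so nothing is read from that count. At an unadjusted p under 0.05 by limma, neither of the 2 was higher and both were lower. The share of all tested genes at that looser threshold is not given here. Tcf7l1 fell from 48.8 ± 3.0 to 41.3 ± 1.45 FPKM, a log2 difference of -0.24 with an SE of 0.06 (limma adjusted p 0.0163). Tcf7l2 was at 14.8 ± 2.60 and 12.0 ± 0.546 FPKM and was not called (adjusted p 0.0956 by limma). Tcf7, at 0.768 ± 0.170 and 0.717 ± 0.261, and Lef1, at 0.140 ± 0.0572 and 0.141 ± 0.107, were below the filter.

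Of 18 arterial and lymphatic genes linked to SoxF factors, 16 were tested, 2 were called higher, 5 lower and 9 neither, beside 17.1% higher and 15.0% lower over all tested genes, with a median log2 difference of -0.12. Gja5, the arterial gap junction protein connexin 40, fell from 20.1 ± 3.79 to 7.81 ± 0.404 FPKM, a log2 difference of -1.24 with an SE of 0.12 (limma adjusted p 0.000174). Sema3g, an arterial semaphorin, fell by 0.62 on the log2 scale (adjusted p 0.0121 by limma), from 1.60 ± 0.505 to 0.667 ± 0.0955 FPKM. Pdpn, a membrane protein of lymphatic endothelium and fibroblasts, fell by 0.98 (adjusted p 0.0416 by limma), a call lost without control 1, 2 or 3 or knockout 1, 2 or 4. Nrp1, a receptor for VEGF and semaphorins, rose from 29.5 ± 0.767 to 37.3 ± 3.57 FPKM (adjusted p 0.00914 by limma). Hey2, a Notch target that smooth muscle also expresses, rose from 28.8 ± 4.13 to 35.5 ± 1.14 (adjusted p 0.0422 by limma), a call lost in 7 of the 8 single omissions.

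Pan-endothelial markers were lower in the knockouts beside Sox17 and Sox18. Of 20 markers, 19 were tested, 12 were called lower, 1 higher and 6 neither, beside 15.0% lower and 17.1% higher over all tested genes. The markers had a median log2 difference of -0.73. Their summed level was 422 to 528 FPKM in the controls and 268 to 335 in the knockouts. Icam2, an adhesion molecule, fell from 27.9 ± 3.39 to 11.9 ± 0.884 FPKM, the junction protein Cldn5 from 21.6 ± 2.39 to 9.88 ± 3.80, and Ecscr from 17.4 ± 1.02 to 7.60 ± 0.724. The exception was Flt1, a VEGF receptor, which rose from 3.96 ± 0.468 to 13.1 ± 2.38 FPKM, a log2 difference of 1.50 with an SE of 0.13 (limma adjusted p 9.19e-05). None of the markers was listed at 0 in all libraries. In bulk RNA, fewer cells of a type and less RNA per cell cannot be told apart.

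The 19 tested markers had log2 differences from -1.16 to 1.50. Among them Sox17 had 8 and Sox18 had 9 markers below it, and Sox7 had 18. The added 1 FPKM shrinks the difference of a low gene such as Sox17 more than that of most markers. By the ratio of knockout to control mean, Sox17 was at 0.465. The markers below it were then Icam2 (0.426), Ecscr (0.437), Cldn5 (0.457) and Nos3 (0.463). Relative to the mean log2 level of the markers in the same library, Sox7 stood at -2.25 ± 0.247 in the controls and -1.60 ± 0.216 in the knockouts. Each knockout value of that log2 level was above each control value. The marker mean was itself lower in every knockout (3.51 to 3.70) than in every control (4.06 to 4.24). A gene at an equal level in all libraries would therefore be set apart in the same way, so the separation is not particular to Sox7. Sox17 stood at -1.75 ± 0.163 and -2.01 ± 0.0875 on the same scale, and Sox18 at -0.48 ± 0.476 and -0.67 ± 0.286. The part of endothelial content in the SoxF differences was not tested.

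**Figure D4:**
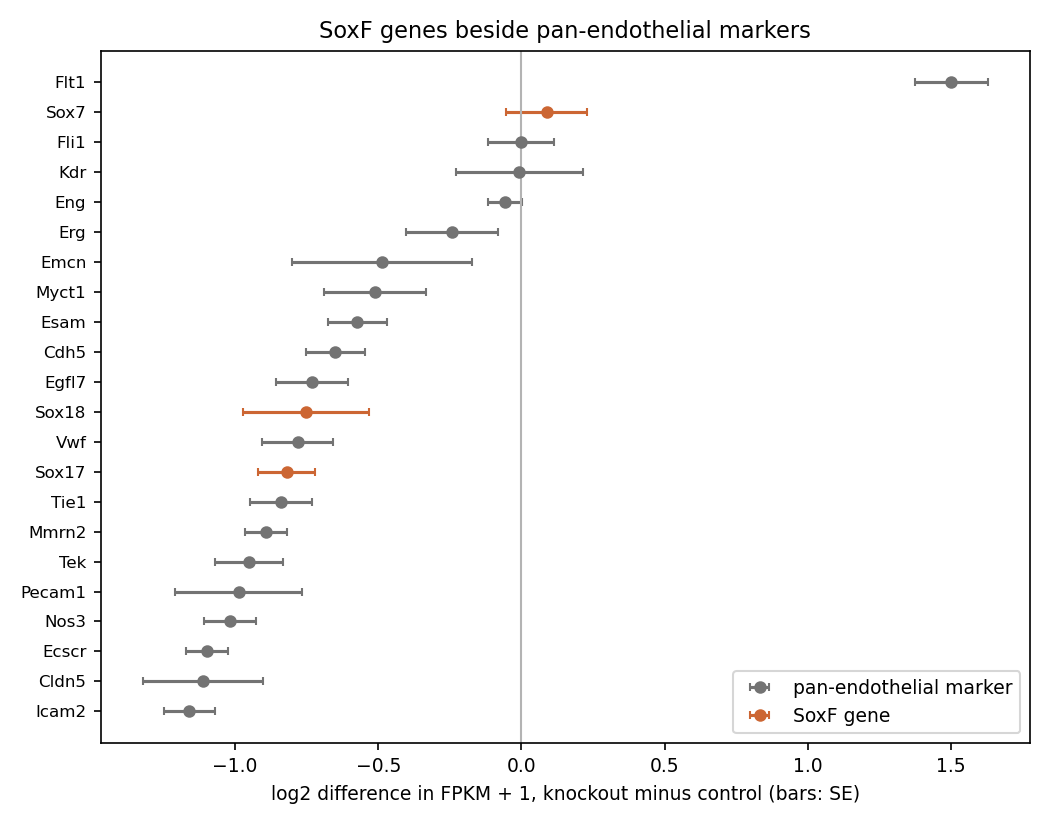
Log2 difference in FPKM + 1, knockout minus control (horizontal axis, bars are SE), of the 3 SoxF genes and the 19 tested pan-endothelial markers, sorted by size. Sox17 and Sox18 lie among the markers, Sox7 near 0 with 18 markers below it, and Flt1 stands alone at 1.50.

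Markers of some other cell types of the wall also differed with genotype. Over all tested genes, 17.1% were called higher and 15.0% lower. Contractile smooth muscle markers were called lower in 5 of 8 (median log2 difference -0.40), with Cnn1 from 1138 ± 105 to 541 ± 130 FPKM and Myh11 and Des also lower, and their sum was 17260 to 17657 FPKM in the controls and 11313 to 15127 in the knockouts. The count called lower was 3 without knockout 3, with no filter and with quantile normalization, and Myh11 lost its call in the last of these. Adventitial fibroblast markers were called lower in 5 of 8 (median -0.63), among them Pi16 from 130 ± 21.1 to 61.1 ± 13.0 FPKM, Clec3b and Col1a1, and the sum went from 1426 to 1805 FPKM down to 915 to 1293. Pdgfra (from 13.7 to 16.7 FPKM) and Lum (from 53.5 to 72.2 FPKM) were higher on average and Dpt was lower, with none of these 3 called. At an unadjusted p under 0.05 by limma 1 fibroblast marker was higher. With the replicate block, and also without knockout 2, the fibroblast markers called higher numbered 2. Fat cell markers were called in 0 of 7 tested (sums of 271 to 911 and 240 to 528 FPKM) and macrophage markers in 0 of 8 (sums of 214 to 301 and 181 to 246 FPKM), and in limma's unadjusted p under 0.05 the count was also 0 in both lists. Their medians were -0.42 and -0.21. Of 7 tested striated muscle markers, Tnnt2 was called higher, Ckm lower and 5 neither, and the sums were 43.0 to 214 and 49.9 to 119 FPKM. Control 4 stood apart, with Acta1 at 65.0 FPKM against 0.333 to 0.722 in the other controls, Tnnt3 at 52.7 against 1.94 to 3.41 and Ckm at 26.8 against 4.27 to 7.33. Myh6 was at 25.6 and 17.0 FPKM in knockouts 1 and 4 and at 0.389 and 1.58 in knockouts 2 and 3. Without knockout 2 the striated markers called higher numbered 2. Their part in the levels of Sox4, Sox9, Sox6, Sox13 and Sox12 was not tested.

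Genes next to the members on the chromosome were set beside them. Of 18 nearest protein-coding neighbours, 10 were tested, and 2 were called higher, 2 lower and 6 neither. Over all tested genes 17.1% were called higher and 15.0% lower, so nothing is read from that count. Cdkal1, 238 kb from Sox4, was at 9.62 ± 0.927 and 9.68 ± 0.888 FPKM, a log2 difference of 0.01 (SE 0.09) beside the 3.09 of Sox4. Slc39a11, 457 kb from Sox9, rose from 3.04 to 4.95 FPKM (log2 difference 0.56, adjusted p 0.000391 by limma). Zcchc3, 13.9 kb from Sox12, fell from 6.25 to 3.73 FPKM (log2 difference -0.61, adjusted p 0.00708 by limma), and Tcea2, 8.7 kb from Sox18, fell from 5.6 to 3.95 (log2 difference -0.43, adjusted p 0.0253 by limma), a call lost without control 1 or knockout 3 or 4. Etnk1, 596 kb from Sox5, rose from 12.8 to 17.0 FPKM (adjusted p 0.0117 by limma), while Sox5 itself overlapped between the genotypes. The tested neighbours of Sox17, Sox7, Sox6 and Sox13, namely Mrpl15, Pinx1, 1110004F10Rik and Snrpe, were not called. Prpf6, on the other side of Sox18 from Tcea2, was not called either.

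The genes whose levels most resembled those of Sox4 over the 8 libraries, by Pearson's r of log2(FPKM + 1), were Nxph3 (r 0.998), Rragd (0.998) and Trpm3 (0.997). After subtraction of each genotype's mean the values were 0.969, 0.949 and 0.907. Nxph3, which encodes a neurexophilin, was at 1.51 ± 0.438 and 14.3 ± 4.25 FPKM, and Rragd, a Rag GTPase of the mTORC1 pathway at the lysosome, was at 0.645 ± 0.140 and 8.69 ± 2.24. Since the genotypes differ widely, 458 genes had an r above 0.95 with Sox4. For Sox17 the most similar genes were Cmip (r 0.994), Igf2 (0.991) and 2210013O21Rik (0.987), with 0.928, 0.886 and 0.909 within genotypes. Cmip was at 26.1 ± 3.91 and 12.9 ± 1.06 FPKM, Igf2, a fetal growth factor, was at 8.11 ± 0.732 and 4.40 ± 0.504, and 130 genes had an r above 0.95. Both genes of each coefficient were read from the same 8 libraries, whose depth and genotype differ, and the genes were found by searching all 12107.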

How the data were processed

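Thoracic aorta RNA of 4 control and 4 Tsc1 knockout libraries was read from 1 table of FPKM values per gene and library, deposited by the authors. Per the submitters' processing notes, the tools were TopHat2, Cufflinks and Cuffdiff and the build was mm10, with no version or role stated. Which annotation, strand setting and library scaling were used is not given in the sources used here. Each gene was on 1 row, no library repeated another, and 0 columns were left out. Depth is known only as ratios between libraries, so no counting intervals are given.

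The 12107 of 23993 genes whose mean was 1 FPKM or more were fitted as log2(FPKM + 1) with limma 3.58.1 in R 4.3.3 (trended eBayes, two-sided, genotype as the only term) and adjusted over all tested genes by Benjamini-Hochberg, with calls at an adjusted p under 0.05. The fit was tested on simulated data. The members and all lists were chosen with earlier results of these data known, so no list is independent evidence. Named genes are all members, the 3 called genes of each list with the largest difference in each direction, every gene of lists of up to 5, the 3 genes most similar to the members with the highest and lowest difference, and the nearest neighbours. List genes Cnmd, Snorc and Adgre1 were found under older symbols. Positions and HMG boxes are from GENCODE vM21, translated with Python 3.11.15. Alternatives were the pseudocount, filters, 2 scalings, library weights, a replicate block, odd- or even-numbered libraries only, and leaving out each library. Schwann cell markers and the HMG box stretch of 1 member are not reported here.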

Additional observations from a re-analysis of the deposited data

Results flagged for a closer look

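Control 2 stood apart from the other controls in the level of Sox18, at 7.27 FPKM against 13.3 to 14.1 in the other 3 controls. Its gap to the nearest control was 0.885 of the range of the group, above Dixon's 95% critical value for 4 samples. The values of the 9 genes in each genotype made 18 groups, of which this was the one past the limit, and chance alone passes it in about 1 of 20 groups. The same library was not apart for Sox17, at 4.47 FPKM, and held the lowest control value of Sox7, at 2.10 FPKM.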

How the results depend on the processing

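Every log2 difference of Sox4, Sox6, Sox9, Sox12, Sox13, Sox17 and Sox18 kept its sign under the alternatives in which it had a value. With a mean of at least 5 FPKM as the filter only Sox4, Sox13 and Sox18 remained in the fit. Sox5 turned to -0.076 in even-numbered libraries and ran from -0.016 to 0.14 when 1 library was left out, and Sox7 turned to -0.040 in odd-numbered libraries and ran from -0.0036 to 0.20. Odd- and even-numbered libraries gave 3.69 and 2.50 for Sox4, -0.83 and -0.24 for Sox6, -0.47 and -0.68 for Sox13, and 1.95 and 0.68 for Sox9. A pseudocount of 0.1 gave -0.79 for Sox6 and -1.07 for Sox17. The cause was not tested, beyond the fewer samples and the smaller pseudocount themselves. By the call rule, Sox18 dropped out with no filter, with library weights, in even-numbered libraries, and without control 1, 3 or 4 or knockout 1, 2 or 4. Sox6 dropped out in even-numbered libraries. Sox12 passed it in odd-numbered libraries, without knockout 2 and with the replicate block.

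Genes of the TCF/LEF list called lower numbered 2 with the replicate block, 0 in odd-numbered and 2 in even-numbered libraries, and 1 to 2 when 1 library was left out. Cartilage genes called lower numbered 1 with no filter and 1 to 2 with 1 library left out. SoxC targets called higher numbered 0 in even-numbered libraries and 0 to 1 with 1 library left out. SoxF-linked genes called higher numbered 1 with no filter, 0 in even-numbered libraries and 1 to 2 with 1 library left out, and those called lower numbered 2 under the filter of 5 FPKM, 1 in odd-numbered libraries and 3 to 6 with 1 library left out. The replicate numbers pair no samples by the labels. Deviations of same-numbered libraries correlated at 0.066 to 0.173, while control 1 correlated best with knockout 3 and control 3 with knockout 1. Control and knockout libraries both odd-numbered or both even-numbered all correlated positively, at 0.016 to 0.173. Pairs of an odd-numbered with an even-numbered library all correlated negatively, at -0.193 to -0.055. The replicate block called 2349 genes higher and 2122 lower, against 2074 and 1819 without it, and over the other alternatives 1638 to 2131 were called higher and 1417 to 1941 lower. With the block, 1 macrophage marker was called higher and 4 lower, against 0 and 0 without it. The calls of Tsc1 and Tcea2 were lost in both odd- and even-numbered libraries alone. Those of Tcf7l1, Cldn5, Tnnt2 and Pdpn were lost in odd-numbered ones, and those of Nrp1, Etnk1, Tead2 and Hey2 in even-numbered ones. With no filter the calls of Acan, Hey2 and Pdpn were lost, and with library weights that of Pdpn. The relative depths limit what can be said of low genes such as Sox6, whose counts are not known.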
